A study of Homo sapiens with 12 samples.

Results

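H7 human embryonic stem cells were differentiated towards cardiomyocytes, and the transcriptome of the cells labelled E2A knockout after 15 days was set against that of wild-type cells after 7 days. The comparison asks whether the late knockout culture resembles the younger wild-type culture, as a delay would have it, and which genes lie elsewhere. It uses 4 of the 12 libraries of the series, taken by their titles: 2 libraries labelled E2A knockout (genotype E2A-/-) at day 15 (KO day 15) and 2 wild-type libraries at day 7 (WT day 7). Both groups carry the label of cardiomyocytes derived from H7, an established line of human embryonic stem cells. The remaining groups served as landmarks with 2 libraries each: KO day 7 and WT day 15, labelled cardiomyocytes, and WT day 3, labelled cardiac mesoderm. KO day 3 entered only the estimate of the spread. How the knockout was made, how many clones it comprises and whether replicates are separate cultures is not given in the labels, so every p-value measures only how far these libraries scatter, and that scatter may be technical. Genotype and day both differ between KO day 15 and WT day 7, and their shares in a difference cannot be told apart in that comparison.

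E2A is the older name of TCF3, which encodes the E12 and E47 proteins. These E proteins are basic helix-loop-helix transcription factors that bind E-boxes, alone or paired with tissue-specific partners such as the MESP factors of cardiac mesoderm, and ID proteins hold them away from DNA. As stem cells become cardiomyocytes they leave pluripotency, pass through a primitive-streak-like state and cardiac mesoderm, switch on sarcomere genes, and then mature, with a shift between the myosin heavy chains MYH6 and MYH7 and with growing mitochondrial capacity.

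Values were taken as FPKM, fragments scaled to transcript length and to the library total, a unit inferred from the values themselves. Comparing levels between genes rests on that inference. Differences are on the log2(FPKM + 1) scale, on which a difference of 1 is a 2-fold change for well expressed genes and which understates changes of genes near 0. A gene was tested where 2 or more of the 12 libraries reached 1 FPKM, which kept 16295 genes and left out 801. The second-highest library value was 1.0003 FPKM in the lowest gene kept and 0.9997 FPKM in the highest gene left out, so the filter divides a continuum. Sums over all genes ran from 577716 to 734958 FPKM across the 12 libraries. Mitochondrially encoded genes took 13.9% and 14.3% of the sum in KO day 15, against 26.1% and 26.2% in WT day 15 and 8.55% and 8.14% in WT day 7. The 2 KO day 15 libraries differed more from each other than those of any other group (pooled SD 0.32, against 0.21 to 0.27 elsewhere, log2 scale). Sequencing depth is unknown.

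TCF3 transcript was not lower in KO day 15: it stood at 170 and 108 FPKM, against 135 and 138 FPKM in WT day 7. The KO day 15 libraries lie on either side of WT day 7, and the difference was -0.01 ± 0.19 (SE; limma, adjusted p = 0.971), and 0.18 after rescaling to the nuclear genes alone. In WT day 15 the gene had 74.4 and 98.2 FPKM. The label is thus not checked by this transcript, and KO stands throughout for the libraries labelled knockout. The related E protein gene TCF4 had 94.3 and 65.1 FPKM in KO day 15, above the 37.6 and 32.2 FPKM of WT day 7 (1.15 ± 0.24, adjusted p = 0.00363). ID1 and ID3, which encode inhibitors of E proteins, were both lower, ID3 not without the second WT day 7 library. ID1 had 441 and 389 FPKM in KO day 15, against 676 and 740 FPKM in WT day 7 (-0.77, adjusted p = 0.000533).

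KO day 15 was not a copy of WT day 7. Of 16295 genes tested, 6390 differed between KO day 15 and WT day 7 (limma with trend, Benjamini-Hochberg adjusted p under 0.05): 3205 were higher (19.7%) and 3185 lower (19.5%). At least a 2-fold difference was reached by 2228 of them and at least a 4-fold difference by 228. The 95% interval of the difference lay within 1 either way for 9489 genes (58.2%). The count fell to 4161 without the first WT day 7 library and to 3948 without the second. Scaling to the sum of genes outside the mitochondrial genome called 6947 genes, with 4641 higher and 2306 lower, so that 66.8% of the calls were higher, against 50.2% as deposited, and the median of all genes was 0.21, against 0.05 as deposited. List medians below are given beside that 0.05, and list counts against WT day 7 beside 19.7% higher and 19.5% lower over all genes. List counts against WT day 15 stand beside 18.9% higher and 16.2% lower over all genes. Those against KO day 7 stand beside 13.3% higher and 15.1% lower. Counts of list genes that rose or fell in wild type stand beside 25.5% and 26.8%.

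By group means and by the count of differing genes in the full fit, KO day 7 was nearest to KO day 15. WT day 15 and WT day 7 followed, and WT day 3 was furthest away. Distances of single library pairs overlapped among the 3 nearer groups. KO day 15 differed from WT day 15 at 5723 genes, of which 3080 were higher (18.9%) and 2643 lower (16.2%). Against WT day 3 it had 4163 genes higher (25.5%) and 3979 lower (24.4%), and against KO day 7 it had 2168 higher (13.3%) and 2460 lower (15.1%). For scale, WT day 15 differed from WT day 7 at 8517 genes, with 4149 higher (25.5%) and 4368 lower (26.8%). Between group means the root-mean-square difference over all tested genes was 0.63 from KO day 7, 0.99 from WT day 3, 0.72 from WT day 7 and 0.68 from WT day 15. Which wild-type day was nearer depended on the library: the distance to WT day 7 was 1.15 times that to WT day 15 without the first KO day 15 library and 0.98 times without the second. With 2 samples a group, an exact permutation test of such a single value cannot go below 0.333, so no test is given.

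**Figure D1:**
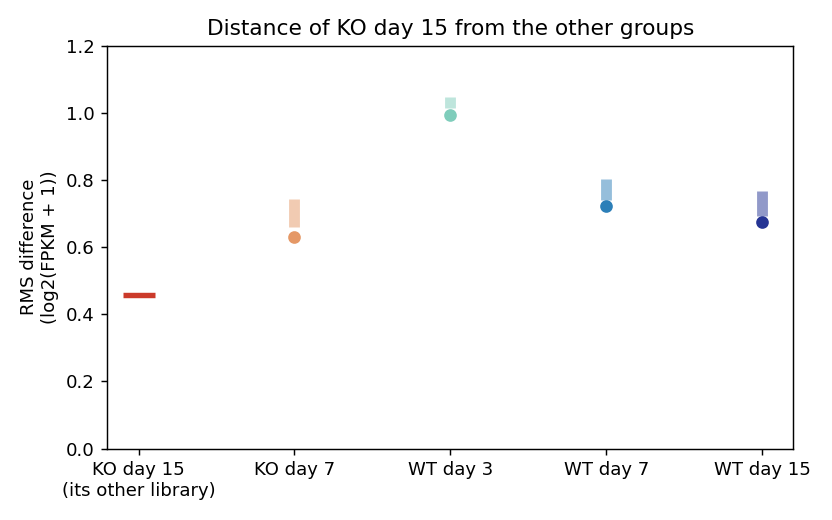
Root-mean-square difference of log2(FPKM + 1) over 16295 genes between KO day 15 and each other group: bars span the 4 library pairs, points are the group means, and the mark at KO day 15 is the difference of its own 2 libraries. KO day 7, WT day 7 and WT day 15 lie close together at 0.66 to 0.80 per library pair, above the 0.46 between the KO day 15 libraries, while WT day 3 lies at 1.02 to 1.05.

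A gene's place on the wild-type course was then measured as the KO day 15 minus WT day 7 difference divided by the WT day 15 minus WT day 7 difference, so that 0 is the WT day 7 level and 1 the WT day 15 level. It was computed for the 3651 genes that changed by at least 1 and passed the test between the wild-type days. The smallest such change was 1.0001, and the largest called change left out was 0.9995. The median place was 0.54, with quartiles of 0.28 and 0.78. It was 0.48 in the first KO day 15 library and 0.59 in the second, 0.55 over the 1766 genes that rose in wild type and 0.54 over the 1885 that fell. As the places share the wild-type libraries that chose the genes, the choice was repeated on 1 library of each wild-type day with the place taken from the other, which gave 0.54 and 0.55.

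Single genes spread widely around that median. By their tests, 1054 of the 3651 genes (28.9%) were at the WT day 7 level, meaning that they differed from WT day 15 and not detectably from WT day 7. A further 1319 (36.1%) were at the WT day 15 level, 855 (23.4%) differed from both days and lay between them, and 264 (7.23%) differed from neither. Another 73 genes (2.0%) lay on the far side of WT day 7 and 86 (2.36%) beyond WT day 15. A test that misses the threshold does not show equality: the 95% interval of the difference from WT day 7 lay within 1 for 853 of the 1054 genes at that level (80.9%), and that from WT day 15 for 1084 of the 1319 (82.2%).

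**Figure D2:**
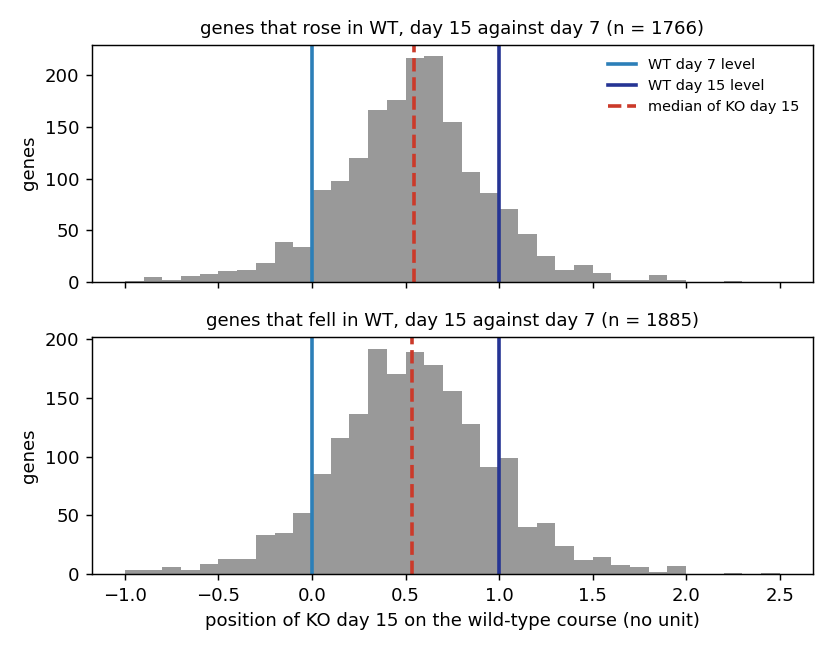
Histograms of the place of KO day 15 on the wild-type course, where 0 is the WT day 7 level and 1 the WT day 15 level (no unit), for the 1766 genes that rose (top) and the 1885 that fell (bottom) between wild-type days 7 and 15; 18 genes under -1 and 8 over 2.5 are outside the axis. Both histograms have a single broad peak with medians of 0.55 and 0.54, and no separate peak at 0.

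The genes that changed most along the wild-type course mostly lay between the days in KO day 15. That class asks for a difference from both days, which a wide wild-type change makes easier to reach. Of the 8 largest wild-type rises, 7 were between and MYH7 was at the day 7 level. Of the 8 largest falls, 6 were between, BST2 was at the day 7 level (called lower than WT day 7 without the first KO day 15 library) and NPY at the day 15 level. INHBA, a subunit of activin, had 2.31 and 2.49 FPKM in KO day 15, against 28.7 and 34.7 FPKM in WT day 15 and 0.437 and 0.110 FPKM in WT day 7. DLK1, an imprinted inhibitor of differentiation, had 94.3 and 79.9 FPKM in KO day 15, against 14.0 and 12.2 FPKM in WT day 15 and 435 and 466 FPKM in WT day 7. In both genes no KO day 15 library overlapped either wild-type day, and their places were 0.30 and 0.47. The apelin receptor gene APLNR, a mesoderm marker, had 17.2 and 11.9 FPKM in KO day 15 and lay at 0.74.

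Defining genes of heart muscle were expressed in both groups. TNNT2, cardiac troponin T, had 1071 and 735 FPKM in KO day 15, on either side of the 810 and 852 FPKM of WT day 7. The difference was 0.09 (limma, adjusted p = 0.745), and -0.18 without the first KO day 15 library. TNNT2 was lower than in WT day 15, which had 1479 and 1622 FPKM (-0.80, adjusted p = 0.0125). NKX2-5, a cardiac transcription factor, had 155 and 131 FPKM in KO day 15. It was not told apart from the 123 and 149 FPKM of WT day 15 (limma, 0.07, adjusted p = 0.792). It was lower than the 204 and 223 FPKM of WT day 7 (-0.58, adjusted p = 0.0367). That call is lost on scaling to the nuclear sum, with a pseudocount of 0.1, with group weights, and without either WT day 7 library or the second KO day 15 library. Among 7 thick filament genes measured, 2 were higher and 3 lower than in WT day 7 (1 and 2 without the second WT day 7 library). MYH7, the myosin heavy chain of the mature ventricle (chr14:23412738-23435718, GRCh38), had 29.9 and 21.9 FPKM in KO day 15, against 395 and 462 FPKM in WT day 15 and 31.1 and 29.3 FPKM in WT day 7. The KO day 15 libraries were thus near WT day 7 and far below WT day 15 (-0.23, adjusted p = 0.312 against WT day 7; -4.01, adjusted p = 3.92e-07 against WT day 15). Its neighbour MYH6, the faster chain of the early and atrial heart (chr14:23381990-23408277), lay nearer WT day 15. It had 959 and 786 FPKM in KO day 15, against 632 and 702 FPKM in WT day 15 and 1921 and 1848 FPKM in WT day 7. Its place was 0.74. In KO day 7, however, MYH6 had 555 and 463 FPKM, so KO day 15 lay above KO day 7 and below WT day 7. The ratio of MYH7 to MYH6 was 0.0312 and 0.0278 in KO day 15, against 0.626 and 0.659 in WT day 15 and 0.0162 and 0.0158 in WT day 7. These genes are near-identical in places, and how reads with several placements were counted is not given. MYH7B, another family member, lay between the days at 5.05 and 5.83 FPKM in KO day 15, against 25.5 and 35.5 FPKM in WT day 15 and 0.592 and 0.909 FPKM in WT day 7. In bulk RNA, fewer cells of a type and less RNA per cell cannot be told apart, here or in the groups that follow.

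Most genes of the thin filament were lower than in WT day 7. Of 8 measured, 7 were lower than in WT day 7 and none higher, with a median difference of -1.01 against 0.05 over all genes, and 6 were lower than in WT day 15. ACTC1, cardiac alpha-actin, had 478 and 313 FPKM in KO day 15, against 967 and 992 FPKM in WT day 15 and 1617 and 1670 FPKM in WT day 7 (-2.08 ± 0.26 against WT day 7, adjusted p = 0.000202). TNNI3, the adult cardiac troponin I, had 25.04 and 29.02 FPKM in KO day 15, against 37.9 and 40.2 FPKM in WT day 3, 71.0 and 78.2 FPKM in WT day 7 and 125 and 135 FPKM in WT day 15. Both KO day 15 libraries lay under all 6 wild-type libraries (-1.43 ± 0.11 against WT day 7, adjusted p = 1.22e-05). The fetal form TNNI1 had 301 and 268 FPKM in KO day 15, against 392 and 344 FPKM in WT day 15. It was lower than the 460 and 478 FPKM of WT day 7 (limma, -0.72, adjusted p = 0.0239). Its call is lost under the same settings as that of NKX2-5. The tropomyosin gene TPM1 was lower too (-0.83, adjusted p = 0.000185).

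Most Z-disc and titin genes were lower than in WT day 15. Of 10 measured, 9 rose in wild type between days 7 and 15 and none fell; in KO day 15, 8 were lower than in WT day 15, while only 1 was higher and 2 were lower than in WT day 7, with a median of -0.12 (0.03 without the second KO day 15 library and 0.08 when scaled to the nuclear sum). The median place of the 7 on the course was -0.20. DES, which encodes the intermediate filament desmin, had 3.94 and 3.802 FPKM in KO day 15, against 65.3 and 78.3 FPKM in WT day 15 and 12.2 and 14.7 FPKM in WT day 7. ANKRD1, a titin-associated repressor that responds to stretch, had 49.3 and 67.8 FPKM in KO day 15, against 896 and 807 FPKM in WT day 15 and 218 and 222 FPKM in WT day 7. Both were below every day 7 library (-1.57 ± 0.20, adjusted p = 0.000211, and -1.91 ± 0.15, adjusted p = 1.18e-05), on the far side of day 7 from day 15.

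Most chamber genes were lower than in WT day 7. Of 8 measured, 6 rose in wild type and 5 were lower in KO day 15 than in WT day 7, with none higher (median -0.70; 3 of 8 lower without the second WT day 7 library). NPPA, the atrial natriuretic peptide, had 40.2 and 39.7 FPKM in KO day 15, against 147 and 181 FPKM in WT day 15 and 74.0 and 82.1 FPKM in WT day 7. XIRP1, an actin-binding protein of intercalated discs, had 20.6 and 15.2 FPKM in KO day 15, against 86.1 and 95.1 FPKM in WT day 15 and 37.1 and 39.5 FPKM in WT day 7. MYL7, the atrial regulatory light chain, had 1350 and 1204 FPKM in KO day 15, against 5961 and 6584 FPKM in WT day 15 and 2994 and 3007 FPKM in WT day 7 (-1.23, adjusted p = 0.0117; the call is lost with group weights and without the second KO day 15 library or either WT day 7 library). All 3 genes lay under both wild-type days in each KO day 15 library. In KO day 7 NPPA had 2.09 and 2.90 FPKM and MYL7 had 301 and 304 FPKM, under KO day 15, whereas XIRP1 had 17.9 and 14.5 FPKM and overlapped KO day 15. MB, myoglobin, ran the other way in wild type, at 39.5 and 27.0 FPKM in KO day 15, against 5.76 and 5.49 FPKM in WT day 15 and 56.8 and 62.7 FPKM in WT day 7.

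**Figure D3:**
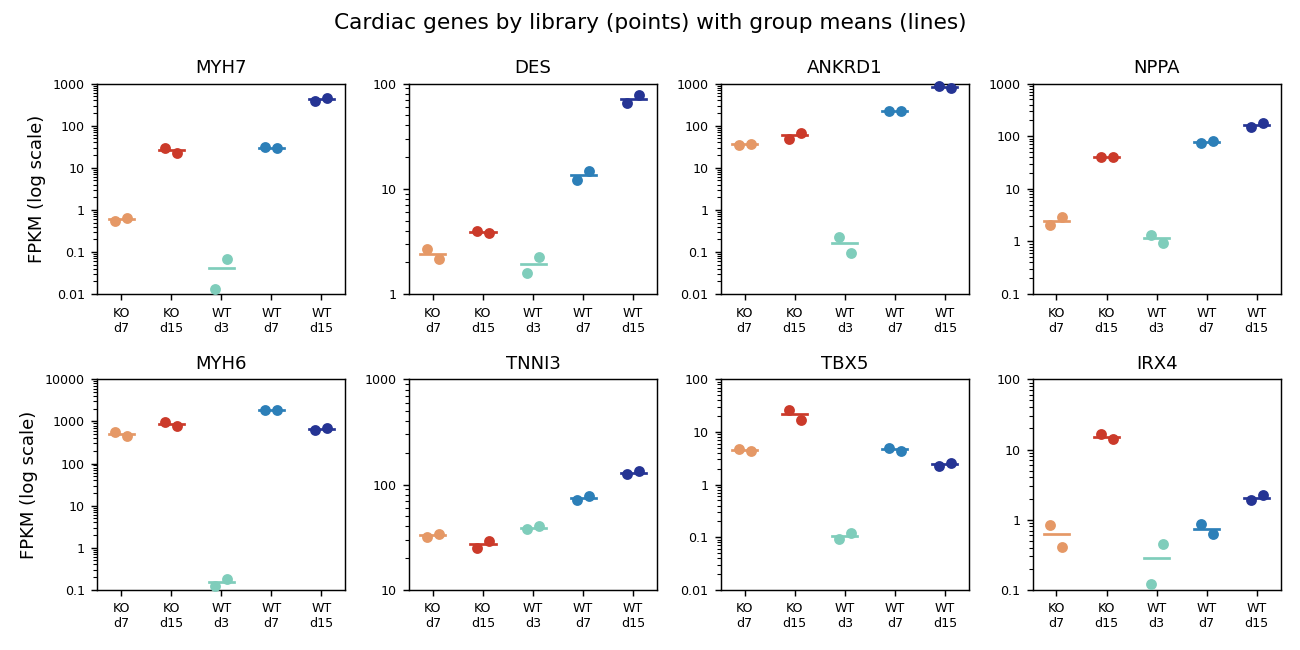
FPKM (log axis, a range of its own in each panel) of 8 cardiac genes in each library (points) with group means (lines), for KO at days 7 and 15 and WT at days 3, 7 and 15. KO day 15 matches WT day 7 in MYH7, lies between WT day 7 and WT day 15 in MYH6, below WT day 7 in DES, ANKRD1 and NPPA, below every WT library in TNNI3, and above every WT library in TBX5 and IRX4.

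Membrane and calcium genes did not share one position. Of 9 calcium handling genes, 4 were higher and 4 lower than in WT day 7 (2 and 2 without either WT day 7 library). RYR2, the release channel of the sarcoplasmic reticulum, had 14.1 and 14.4 FPKM in KO day 15, against 18.7 and 18.8 FPKM in WT day 15 and 5.78 and 5.28 FPKM in WT day 7, and was not told apart from WT day 15 (adjusted p = 0.128). JPH2, which ties that membrane to the cell surface, was lower than at either day, at 27.3 and 20.4 FPKM in KO day 15, against 45.1 and 50.6 FPKM in WT day 15 and 46.9 and 49.7 FPKM in WT day 7. Of 8 ion channel genes of working muscle, 2 were higher and 3 lower than in WT day 7. The shares over all genes were 19.7% and 19.5%. The median place of the 5 channel genes on the course was 0.90. CACNB2, a subunit of the L-type calcium channel, had 19.9 and 17.9 FPKM in KO day 15, as in WT day 15 (17.0 and 17.7 FPKM) and unlike WT day 7 (3.79 and 3.74 FPKM). KCNIP2, a subunit of the transient outward potassium channel, had 6.36 and 4.81 FPKM in KO day 15, against 6.72 and 5.17 FPKM in WT day 15 and 36.8 and 43.3 FPKM in WT day 7. GJA1, the gap junction protein connexin 43, was likewise at the day 15 level, with 129 and 119 FPKM in KO day 15, against 120 and 107 FPKM in WT day 15 and 288 and 275 FPKM in WT day 7. None of these 3 genes overlapped WT day 7.

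Several regulators of the early heart exceeded every wild-type day. Of 15 cardiac transcription factors measured, 5 were higher and 6 lower than in WT day 7. The 5 higher ones lay above all wild-type days, as did 3.01% of all genes. TBX5, a factor of the first heart field and the atria, had 26.7 and 17.1 FPKM in KO day 15, against 0.0942 and 0.119 FPKM in WT day 3, 4.88 and 4.41 FPKM in WT day 7 and 2.30 and 2.62 FPKM in WT day 15 (1.99 ± 0.21 against WT day 7, adjusted p = 6.16e-05). IRX4, a ventricular homeobox factor, had 16.4 and 14.1 FPKM in KO day 15, against 1.89 and 2.24 FPKM in WT day 15 and 0.862 and 0.625 FPKM in WT day 7. NR2F1, an atrial and neural nuclear receptor, had 16.7 and 15.05 FPKM in KO day 15, while no wild-type library exceeded 1.14 FPKM. Both KO day 15 libraries stood clear of all wild-type libraries in these 3 genes. The progenitor factor ISL1 was lower, at 18.4 and 18.6 FPKM in KO day 15, against 37.1 and 36.0 FPKM in WT day 15 and 72.9 and 73.9 FPKM in WT day 7, and HAND1 was lower than at either day as well (-1.49, adjusted p = 1.94e-05 against WT day 7). Of 11 pacemaker genes, 4 were higher and 4 lower (2 higher without the first WT day 7 library). HCN4, the pacemaker current channel, had 28.4 and 22.3 FPKM in KO day 15, against 14.98 and 17.5 FPKM in WT day 15 and 13.2 and 13.6 FPKM in WT day 7. CACNA1G, a T-type calcium channel, had 7.77 and 5.99 FPKM in KO day 15, against 0.167 and 0.392 FPKM in WT day 15 and 1.95 and 1.94 FPKM in WT day 7. Both channels were above these days in each library. TBX3, a conduction system repressor, was lower (-1.27, adjusted p = 0.000126).

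Markers of other cell types moved beside these muscle genes, and their part in the cardiac results was not tested. Most endodermal genes were lower in KO day 15: 7 of 9 measured against WT day 7, none higher, with a summed level of 63.6 to 66.1 FPKM in KO day 15, 260 to 274 FPKM in WT day 15 and 190 to 203 FPKM in WT day 7. FOXA2, a pioneer factor of endoderm, had 5.85 and 4.86 FPKM in KO day 15, the WT day 15 level (5.45 and 6.96 FPKM), against 68.8 and 72.8 FPKM in WT day 7 (-3.50 ± 0.14, adjusted p = 2.06e-07). Of 12 epithelial genes, 10 were lower and none higher, with sums of 1986 to 3008 FPKM in KO day 15, 2805 to 3085 FPKM in WT day 15 and 8426 to 8461 FPKM in WT day 7. Of the 9 on the course, 7 were at the day 15 level. The epithelial sum was also 2500 to 3268 FPKM in KO day 7 and 2673 to 2687 FPKM in WT day 3. Among these groups only WT day 7 was high. Against KO day 7, 2 of the 12 were higher in KO day 15 and 2 lower. KRT19, a keratin of simple epithelia, had 450 and 380 FPKM in KO day 15, against 321 and 340 FPKM in WT day 15 and 2604 and 2638 FPKM in WT day 7. EPCAM, an epithelial adhesion protein, was below all 6 wild-type libraries at 44.8 and 63.7 FPKM in KO day 15, against 81.3 and 68.4 FPKM in WT day 15 and 240 and 228 FPKM in WT day 7.

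Smooth muscle, endothelial and fibroblast markers included many that were lower. Of 9 smooth muscle genes, 5 were lower and none higher than in WT day 7, with sums of 737 to 830 FPKM in KO day 15, against 2720 to 2951 FPKM in WT day 15 and 1612 to 1652 FPKM in WT day 7. ACTA2, smooth muscle alpha-actin, had 141 and 104 FPKM in KO day 15, against 506 and 538 FPKM in WT day 15 and 554 and 561 FPKM in WT day 7, though reads of the actin genes may be shared. TAGLN, transgelin, had 223 and 203 FPKM in KO day 15, against 1105 and 1221 FPKM in WT day 15 and 350 and 375 FPKM in WT day 7, on the far side of day 7. Neither gene overlapped a wild-type day. Of 7 endothelial genes, 4 were lower and none higher (1 without the first WT day 7 library), with sums of 67.6 to 76.9 FPKM in KO day 15, 74.9 to 76.7 FPKM in WT day 15 and 106 to 121 FPKM in WT day 7. Among 5 epicardial and fibroblast genes tested, 4 were lower (2 without either WT day 7 library); COL1A1 had 147 and 108 FPKM in KO day 15, near the 115 and 135 FPKM of WT day 15 and under the 405 and 385 FPKM of WT day 7. Of 14 matrix genes, 10 were lower and 1 higher (8 and 0 without either WT day 7 library). FN1, fibronectin, had 405 and 364 FPKM in KO day 15, against 1276 and 1246 FPKM in WT day 15 and 1403 and 1425 FPKM in WT day 7. It was lower than at both days.

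Neural and neural crest genes included many that were higher than in WT day 7. Of 14 neural genes tested, 8 were higher and 1 lower than in WT day 7, with a median of 0.80 against 0.05 over all genes. Above every wild-type day were 5 of them, beside 3.01% of all genes. The same share stands beside the neural crest and HOX genes below. The summed level was 580 to 613 FPKM in KO day 7 and 402 to 456 FPKM in KO day 15, against 560 to 570 FPKM in WT day 3, 381 to 392 FPKM in WT day 7 and 332 to 354 FPKM in WT day 15, so the sum alone did not set KO day 15 apart. GAP43, a growth cone protein, had 17.7 and 16.8 FPKM in KO day 15, against 6.65 and 5.07 FPKM in WT day 15 and 1.21 and 1.49 FPKM in WT day 7. MAP2, a microtubule protein of dendrites, had 21.6 and 21.8 FPKM in KO day 15, against 5.30 and 4.95 FPKM in WT day 15 and 1.51 and 2.89 FPKM in WT day 7. Both genes stood above these days without overlap. SOX2, a factor of stem and neural progenitor cells, had 39.8 and 55.6 FPKM in KO day 15, against 21.0 and 21.2 FPKM in WT day 7, and 153 and 157 FPKM in KO day 7. TUBB3, a neuronal tubulin, was the 1 that was lower, with 28.8 and 26.5 FPKM in KO day 15 and 74.5 and 79.7 FPKM in WT day 7. Of 7 neural crest genes, 3 were higher and 1 lower (2 and 0 without either WT day 7 library), with sums of 72.7 to 91.0 FPKM in KO day 15 and 61.4 to 63.6 FPKM in WT day 7. PAX3 and TFAP2A, 2 of the higher genes, were above every wild-type day. Of the 5 HOX genes measured, 3 were higher than in WT day 7 and 2 of these, HOXB3 and HOXB4, were above every wild-type day, though the call of HOXB4 was lost without either WT day 7 library, and 1 of the 5 was higher without the second.

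Pluripotency genes had declined in part. Of 8 measured, 5 were lower and 1 higher than in WT day 7. POU5F1, the core pluripotency factor also called OCT4, had 39.1 and 27.5 FPKM in KO day 15, the WT day 15 level (23.4 and 36.7 FPKM), against 114 and 111 FPKM in WT day 7. LIN28A, an RNA-binding protein of early development, was still high, at 366 and 333 FPKM in KO day 15, against 60.7 and 64.3 FPKM in WT day 15 and 619 and 596 FPKM in WT day 7. It thus lay between the days. TDGF1, the NODAL co-receptor CRIPTO, was below all wild-type days, with 1.84 and 1.94 FPKM in KO day 15, against 260 and 266 FPKM in WT day 3, 26.1 and 34.2 FPKM in WT day 7 and 13.5 and 11.96 FPKM in WT day 15. GSC, a primitive streak and organizer factor, was higher, at 5.96 and 5.22 FPKM in KO day 15, against at most 0.381 FPKM in WT day 7, while 6 of the 12 primitive streak genes were lower.

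Signalling genes were called in both directions, and their counts stand beside 19.7% higher and 19.5% lower over all genes. Of 18 WNT pathway genes, 4 were higher and 8 lower than in WT day 7. AXIN2, a feedback inhibitor and direct target of canonical WNT signalling, had 59.7 and 52.8 FPKM in KO day 15, against 28.6 and 28.3 FPKM in WT day 3, 8.05 and 6.32 FPKM in WT day 7 and 13.8 and 14.97 FPKM in WT day 15 (2.81 ± 0.16 against WT day 7, adjusted p = 1.24e-06). The receptor gene FZD7 lay below every wild-type library, at 52.9 and 42.4 FPKM in KO day 15, against 222 and 221 FPKM in WT day 7. Of 19 BMP pathway genes, 5 were higher and 8 lower (2 higher without the second WT day 7 library or the second KO day 15 library); the ligand BMP4 had 79.3 and 64.6 FPKM in KO day 15 and 209 and 211 FPKM in WT day 7, and the ligand BMP5 had 22.4 and 26.3 FPKM in KO day 15 and 6.14 and 6.39 FPKM in WT day 7. Of 14 NOTCH genes, 2 were higher and 4 lower than in WT day 7 (1 and 3 without either WT day 7 library), beside 19.7% and 19.5% of all genes. Against WT day 15, 9 were higher and none lower, beside 18.9% and 16.2% of all genes. The median place of the 6 on the course was 0.09. The NOTCH feedback gene NRARP had 7.32 and 6.81 FPKM in KO day 15, against 1.39 and 1.63 FPKM in WT day 15 and 13.4 and 12.8 FPKM in WT day 7. Of 12 retinoid genes, 3 were higher and 3 lower (1 higher without either WT day 7 library), again beside 19.7% and 19.5% of all genes. The receptor gene RARB had 5.07 and 3.91 FPKM in KO day 15, near WT day 15 (7.32 and 5.997 FPKM) and under WT day 7 (30.5 and 28.1 FPKM). Of 12 NODAL and activin genes, 2 were higher and 4 lower (1 higher without the first WT day 7 library).

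Mitochondrially encoded genes lay between WT day 7 and WT day 15, but below KO day 7. All 13 mitochondrially encoded protein genes were higher in WT day 15 than in WT day 7, and in KO day 15 12 of the 13 were higher than in WT day 7 and all 13 were lower than in WT day 15. Their sum was 62650 to 72020 FPKM in KO day 15, against 147200 to 153900 FPKM in WT day 15 and 37130 to 38060 FPKM in WT day 7, with a median place of 0.39. The sum was 93240 to 113500 FPKM in KO day 7 and 90840 to 98940 FPKM in WT day 3. Against KO day 7, 10 of the 13 were lower in KO day 15 and 0 higher. The knockout libraries thus fell from day 7 to day 15 while wild type rose. MT-CYB, cytochrome b, had 2020 and 1853 FPKM in KO day 15, against 4281 and 5414 FPKM in WT day 15 and 543 and 537 FPKM in WT day 7. Nuclear genes of the respiratory chain did not follow: of 22, 14 were lower than in WT day 7 and none higher, with a median of -0.44, and 13 were lower and 1 higher than in WT day 15. Against WT day 7, 8 were lower without the second WT day 7 library or when scaled to the nuclear sum, and 9 without the first. Glycolysis and hypoxia genes, 16 of 19 of which fell in wild type, were lower at 10 and higher at 3 in KO day 15 than in WT day 7, and 14 were higher than in WT day 15, a median place of 0.32. The 3 were 1 without either WT day 7 library or the first KO day 15 library, and 5 without the second. Against KO day 7, 16 of the 19 glycolysis and hypoxia genes were higher in KO day 15 and 1 lower. Their sum was 3490 to 3737 FPKM in KO day 7, 5092 to 6171 FPKM in KO day 15 and 5794 to 5798 FPKM in WT day 3. The knockout libraries thus rose from day 7 to day 15 while wild type fell. The glucose transporter SLC2A3 had 934 and 831 FPKM in KO day 15, against 364 and 355 FPKM in WT day 15 and 2243 and 2122 FPKM in WT day 7. CPT1B, the muscle carnitine palmitoyltransferase of fatty acid oxidation, had 18.1 and 17.8 FPKM in KO day 15, against 55.7 and 60.6 FPKM in WT day 15 and 6.48 and 6.30 FPKM in WT day 7.

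Most ribosomal protein genes were higher than in WT day 15. Of 20, 16 fell in wild type between days 7 and 15 and none rose, whereas in KO day 15 5 were lower and 1 higher than in WT day 7, with 2 lower when scaled to the nuclear sum and 0 without the second WT day 7 library, and 16 were higher than in WT day 15. RPLP0 had 1477 and 1257 FPKM in KO day 15, against 551 and 568 FPKM in WT day 15 and 1765 and 1845 FPKM in WT day 7. Many ribosomal protein genes have processed copies in the genome, so these levels are uncertain. Most mitotic genes were lower: 11 of 16 G2/M genes against WT day 7, with none higher, while of 16 S phase genes 4 were higher and 2 lower (1 higher without the first KO day 15 library or the second WT day 7 library). In wild type, 11 of the 16 G2/M genes fell as well from day 7 to day 15, and 2 rose. TPX2, a spindle assembly factor, had 71.4 and 72.0 FPKM in KO day 15. It had 59.7 and 57.6 FPKM in WT day 15 and 121 and 126 FPKM in WT day 7. The proliferation marker MKI67 had 14.5 and 12.5 FPKM in KO day 15, against 8.63 and 10.3 FPKM in WT day 15. It was lower than the 20.2 and 20.1 FPKM of WT day 7 (limma, -0.55, adjusted p = 0.0217). That call is lost on scaling to the nuclear sum, without either WT day 7 library, without the second KO day 15 library and in a fit of the compared libraries alone.

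Most targets of p53 were lower than in WT day 7. Of 17, 11 were lower and 1 higher (7 lower when scaled to the nuclear sum). In wild type, 12 of the 17 fell from day 7 to day 15 and 2 rose. Against WT day 15, 4 were lower and 3 higher in KO day 15, beside 16.2% and 18.9% of all genes. CDKN1A, the cell cycle inhibitor p21, had 0.797 and 0.533 FPKM in KO day 15, below every wild-type library, against 36.0 and 28.3 FPKM in WT day 3, 13.2 and 14.2 FPKM in WT day 7 and 2.45 and 3.05 FPKM in WT day 15. PHLDA3, an AKT inhibitor, had 3.04 and 1.94 FPKM in KO day 15, against 3.82 and 3.77 FPKM in WT day 15. In WT day 7 it had 12.2 and 13.7 FPKM. KO day 7 was already low in CDKN1A (0.776 and 0.487 FPKM) and lower than KO day 15 in PHLDA3 (0.465 and 0.426 FPKM). Of 13 genes of amino acid and unfolded protein stress, 5 were higher than in WT day 7 and none lower. In wild type, 10 of the 13 rose from day 7 to day 15 and 2 fell. ASNS, asparagine synthetase, had 86.8 and 110 FPKM in KO day 15, against 76.4 and 76.3 FPKM in WT day 15 and 17.1 and 18.9 FPKM in WT day 7. It was above both days. ATF5, a stress-responsive transcription factor and one of the 10 largest rises, had 84.8 and 72.4 FPKM in KO day 15, against 65.6 and 65.1 FPKM in WT day 15 and 4.70 and 4.20 FPKM in WT day 7 (3.87 ± 0.13 against WT day 7, adjusted p = 1.49e-07; 0.26, adjusted p = 0.147 against WT day 15). Of 9 interferon-inducible genes, 4 were lower and none higher. BST2, tetherin, had 71.6 and 60.7 FPKM in KO day 15, against 4.28 and 5.27 FPKM in WT day 15 and 87.2 and 84.9 FPKM in WT day 7, while ISG15, a ubiquitin-like modifier, was below every wild-type library at 9.32 and 8.07 FPKM in KO day 15 and 43.2 and 41.4 FPKM in WT day 7.

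**Figure D4:**
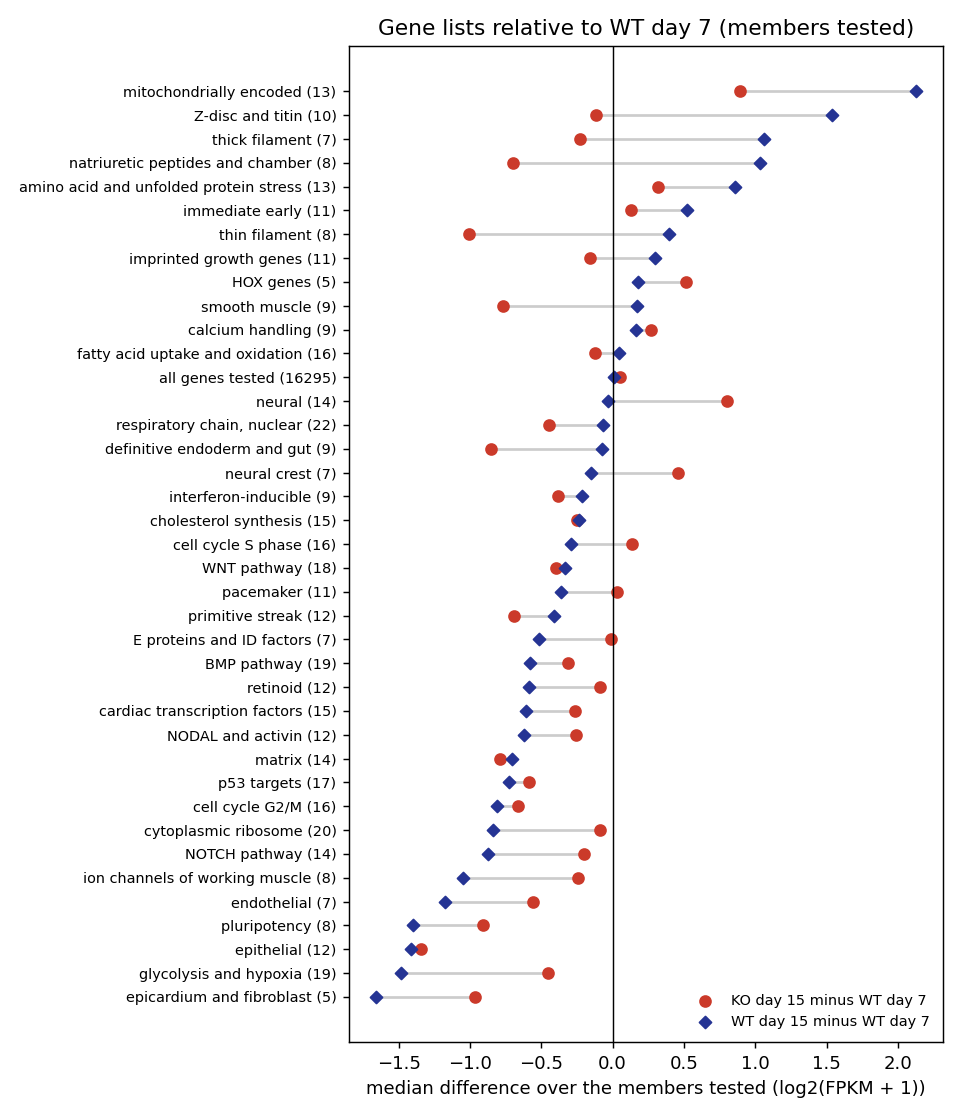
Median difference on the log2(FPKM + 1) scale over the tested members of each gene list with at least 5 of them (number in brackets), for KO day 15 minus WT day 7 (red circles) and WT day 15 minus WT day 7 (blue diamonds), with all 16295 genes as a row. Contractile lists sit right of 0 in WT day 15 and at or left of 0 in KO day 15, mitochondrially encoded genes lie at 0.89 against 2.12, and neural genes lie at 0.80 against -0.03; both differences share the WT day 7 libraries.

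Some genes lay outside the range of all wild-type days sampled, so that none of these days matched them. KO day 15 was above every wild-type day at 491 genes (3.01%) and below at 409 (2.51%), counting genes that differed from WT day 3, WT day 7 and WT day 15 in the same direction with both KO day 15 libraries outside all 6 wild-type libraries. Scaled to the nuclear sum, the counts were 785 above and 270 below. Without the first KO day 15 library they were 413 and 576, without the second 506 and 331, and without the second WT day 7 library 346 and 268. The 3 contrasts share the KO day 15 libraries, and days other than 3, 7 and 15 were not sampled.

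ZIC1, WNT8B, WNT3A, RSPO1 and PAX3 were among the genes above every wild-type day. ZIC1, a zinc finger factor of the dorsal neural tube, had 42.4 and 37.2 FPKM in KO day 15, against 0.734 and 1.93 FPKM in WT day 3, 0.247 and 0.575 FPKM in WT day 7 and 4.001 and 4.80 FPKM in WT day 15 (4.86 ± 0.25 against WT day 7, adjusted p = 8.94e-07). WNT8B, a WNT ligand of the dorsal forebrain (chr10:100463041-100483744), had 25.9 and 20.0 FPKM in KO day 15, against 2.62 and 2.74 FPKM in WT day 15 and 0.121 and 0.0823 FPKM in WT day 7. WNT3A, a canonical WNT ligand of the streak and dorsal midline (chr1:228007051-228061260), had 20.2 and 17.3 FPKM in KO day 15, against 9.89 and 10.8 FPKM in WT day 3, 0.0280 and 0.256 FPKM in WT day 7 and 0.438 and 0.936 FPKM in WT day 15. None of these groups overlapped. RSPO1, which strengthens WNT signalling, had 19.3 and 17.6 FPKM in KO day 15 and 0.381 and 0.161 FPKM in WT day 7, and GDF7, a BMP-family ligand of the roof plate, had 13.6 and 12.4 FPKM in KO day 15 and 0.473 and 0.320 FPKM in WT day 7. PAX3, a neural crest and dorsal neural tube factor, had 13.3 and 12.9 FPKM in KO day 15, against 0.342 and 0.204 FPKM in WT day 7, and was higher still in KO day 7 with 26.6 and 25.04 FPKM. TRH, the thyrotropin-releasing hormone precursor, and CDH6, a cadherin of kidney and neural crest, were above every wild-type day too, with differences of 3.67 and 3.57 from WT day 7.

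Of the 10 largest falls, TDGF1 (above), QPCT and LINC01356 were below every wild-type day. QPCT, which encodes glutaminyl cyclase, had 0.327 and 0.295 FPKM in KO day 15, against 14.0 and 13.5 FPKM in WT day 3, 11.1 and 13.0 FPKM in WT day 7 and 5.52 and 5.75 FPKM in WT day 15. Outside the 10, CAT and CST1 were also below every wild-type day. CAT, the hydrogen peroxide-degrading enzyme catalase, had 0.670 and 0.313 FPKM in KO day 15, against 15.4 and 11.5 FPKM in WT day 15 and 10.04 and 12.4 FPKM in WT day 7, and was already low in KO day 7 with 0.621 and 1.45 FPKM. CST1, a cystatin, had 1.01 and 0.949 FPKM in KO day 15, against 19.03 and 18.6 FPKM in WT day 15 and 13.1 and 13.4 FPKM in WT day 7. All 3 of these genes were low in both KO day 15 libraries. The largest fall of all, NPY, was not of this kind: this neuropeptide had 8.23 and 4.16 FPKM in KO day 15, near the 11.2 and 9.21 FPKM of WT day 15, against 193 and 208 FPKM in WT day 7 (-4.87 ± 0.29, adjusted p = 1.97e-06). HLA-B, an MHC class I gene with near copies, was at the WT day 15 level as well, at 9.91 and 8.34 FPKM in KO day 15, against 12.4 and 12.3 FPKM in WT day 15 and 124 and 119 FPKM in WT day 7. CBLN2, a synaptic organizer, was lower than at both days, at 1.32 and 0.963 FPKM in KO day 15, against 15.3 and 16.8 FPKM in WT day 15 and 28.1 and 30.8 FPKM in WT day 7.

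**Figure D5:**
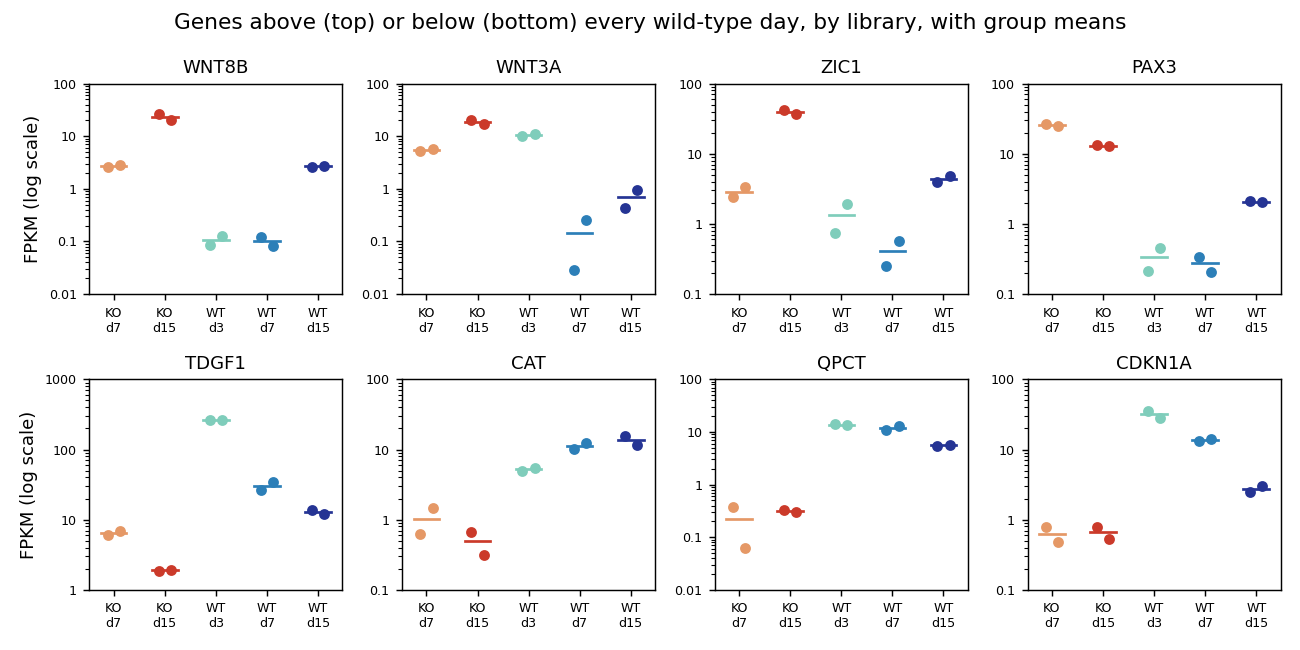
FPKM (log axis, a range of its own in each panel) in each library (points) with group means (lines) for 4 genes above (top) and 4 genes below (bottom) every wild-type day in KO day 15, for KO at days 7 and 15 and WT at days 3, 7 and 15. In no panel do the 2 KO day 15 libraries overlap any of the 6 WT libraries, while KO day 7 overlaps or passes KO day 15 in PAX3, CAT, QPCT and CDKN1A.

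E proteins bind the E-box, and its letters in the 250 bases before the RefSeq start (GRCh38.p14) are printed for 2 genes on the far side of WT day 7, MYL7 and XIRP1, and 2 above every wild-type day, WNT8B and WNT3A. Each is given 5′ to 3′ on the strand of its gene, with matches to CANNTG, which reads the same on both strands, in capitals. MYL7 is at chr7:44141333-44141582 (minus strand), XIRP1 at chr3:39192596-39192845 (minus strand), WNT8B at chr10:100462759-100463008 (plus strand) and WNT3A at chr1:228006748-228006997 (plus strand).
MYL7: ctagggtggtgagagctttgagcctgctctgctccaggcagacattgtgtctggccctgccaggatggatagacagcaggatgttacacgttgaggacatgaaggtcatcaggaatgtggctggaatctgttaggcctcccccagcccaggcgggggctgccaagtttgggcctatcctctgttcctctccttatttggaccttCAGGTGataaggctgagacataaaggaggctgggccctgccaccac
XIRP1: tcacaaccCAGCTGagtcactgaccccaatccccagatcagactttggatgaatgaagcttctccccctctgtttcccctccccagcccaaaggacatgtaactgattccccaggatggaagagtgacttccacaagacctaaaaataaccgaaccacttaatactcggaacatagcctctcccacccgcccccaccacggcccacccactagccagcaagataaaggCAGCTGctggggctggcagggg
WNT8B: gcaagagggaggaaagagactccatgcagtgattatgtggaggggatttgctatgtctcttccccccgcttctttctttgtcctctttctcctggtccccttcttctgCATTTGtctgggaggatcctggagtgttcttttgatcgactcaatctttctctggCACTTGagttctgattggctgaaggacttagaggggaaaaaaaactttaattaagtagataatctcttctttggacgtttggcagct
WNT3A: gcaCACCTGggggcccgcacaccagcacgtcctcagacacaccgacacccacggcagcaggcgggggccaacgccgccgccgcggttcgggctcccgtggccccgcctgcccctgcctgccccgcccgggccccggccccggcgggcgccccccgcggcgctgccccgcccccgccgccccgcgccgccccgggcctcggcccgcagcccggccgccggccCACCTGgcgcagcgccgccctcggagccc
MYL7 holds 1 match and each of the others 2. Genes were matched to the RefSeq table by symbol. At least 1 match was in 50.3% of 310 matched genes above every wild-type day, in 50.3% of 304 matched genes below, in 53.2% of all 10910 matched genes tested and in 62.2% of all 27305 promoters in the table. A match is a string of letters, not a measured binding site, and genes without one in this window may have one elsewhere.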

How the data were processed

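Per the labels' protocols, Trizol was used for RNA isolation and each Illumina library began with 1 ug of total RNA. The deposited files hold 1 value per gene symbol and library. The unit was inferred from the deposited values as FPKM: their sums differ between libraries, and low values of 863 genes with 1 transcript of at least 1500 bases lay within 0.1 of whole fragments more often when scaled by length (48.1% to 71.4%) than without (32.7% to 43.8%). As these shares were not near all, no counts were rebuilt, and depth, and with it counting error, is unknown. BWA and GRCh38 are named in the submitters' processing notes; neither the counting program nor its strand setting nor its handling of multiple placements is given in the sources used here. No library has a 0 among its 17096 genes. Symbols include 22 that became dates and 9 repeated ones covering 18 lines, none of which is named. Places are those of GENCODE release 29, found for 15039 symbols (88.0%).

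Tests were limma 3.58.1 (R 4.3.3) with trend on log2(FPKM + 1), with 6 group means over 12 libraries (6 residual degrees of freedom), two-sided, adjusted by Benjamini and Hochberg over 16295 genes at 0.05, and tested on simulated data. Alternatives were other scalings, filters, pseudocounts and variance models, a replicate block and each library left out. Genes were named from a fixed set of E protein, cardiac, neural and other genes, not all of which are printed. Further ones came from the 10 largest rises and falls, and the 8 largest on the wild-type course and past every wild-type day. Up to 4 members of each of 40 lists with the smallest adjusted p were added. Members, lists and rules were chosen with earlier results of these data known. List members outside these genes were not analysed here, so counts of members cover only genes above 0 in every library, and a gene fully off in 1 group would not be among them.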

Additional observations from a re-analysis of the deposited data

How the results depend on the processing

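The main limits are 2 libraries a group of unstated origin, an inferred unit, unknown depth, and KO day 15 libraries that differ from each other more than other pairs. Leaving out 1 library at a time gave 3948 to 6229 genes for KO day 15 against WT day 7, 3851 to 5538 against WT day 15, 6072 to 7839 against WT day 3 and 2915 to 4917 against KO day 7, and 6401 to 6806 for WT day 15 against WT day 7. It gave 614 to 989 genes past every wild-type day, a median place on the wild-type course of 0.481 to 0.587, and a distance to WT day 7 over that to WT day 15 of 0.978 to 1.15. With group weights KO day 15 differed from WT day 7 at 5070 genes and from WT day 15 at 3868. Under the same weights it differed from KO day 7 at 2714 genes, and 564 lay past every wild-type day. The classes of genes on the wild-type course, which rest on such calls, were not recomputed under any alternative. With only the libraries compared in the fit, 3563 genes differed between KO day 15 and WT day 15 and 2054 between KO day 15 and KO day 7, with fewer libraries to estimate the spread. Rescaling, either change of the filter, the smaller pseudocount and the fit with no trend kept each total of genes within 1.5 times that reported, though not its split above and below the wild-type days, which the nuclear sum moved to 785 and 270. The difference of TCF3 between KO day 15 and WT day 7 changed sign when scaled to the nuclear sum (0.18), and ran from -0.33 to 0.31 with 1 library left out; that of TNNT2 ran from -0.18 to 0.37; the cause was not tested. Deviations of same-numbered libraries correlated at 0.103 to 0.206 between the 3 knockout days, and at -0.12 to 0.048 between all other groups, with -0.013 between KO day 15 and WT day 7. The labels state no shared batch, so the numbers were not taken as pairing. With the replicate block 6431 genes differed between KO day 15 and WT day 7, and no gene named here changed its call in that comparison. Against KO day 7 the block gave 4670 genes. Against WT day 15 it gave 5791 genes, and 5992 with the wild-type numbers crossed, a setting chosen after seeing the data.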

Other observations

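Growth and early response genes did not share one position. Their counts are given beside 19.7% higher and 19.5% lower over all genes. Of 11 imprinted growth genes tested, 3 were higher and 2 lower in KO day 15 than in WT day 7. PLAGL1, a zinc finger growth regulator, had 22.8 and 19.5 FPKM in KO day 15, against 9.27 and 9.88 FPKM in WT day 15 and 6.67 and 7.42 FPKM in WT day 7 (limma, 1.46, adjusted p = 0.000111). CDKN1C, the cell cycle inhibitor p57, had 52.9 and 42.7 FPKM in KO day 15, against 50.2 and 61.2 FPKM in WT day 15 and 122 and 128 FPKM in WT day 7, and so stood at the day 15 level. Of 11 immediate early genes, 3 were higher and 1 lower. FOS, a subunit of the AP-1 factor, had 9.38 and 8.95 FPKM in KO day 15, against 6.19 and 6.29 FPKM in WT day 15 and 2.92 and 3.53 FPKM in WT day 7. EGR1, a zinc finger factor induced by serum and stretch, had 14.7 and 11.6 FPKM in KO day 15, against 7.81 and 7.31 FPKM in WT day 15 and 4.42 and 6.14 FPKM in WT day 7. Both were highest in KO day 15 among these groups.

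Lipid metabolism counts are given beside 19.7% higher and 19.5% lower over all genes. Of 16 genes of fatty acid uptake and oxidation, 2 were higher and 5 lower than in WT day 7 (1 and 3 without the second WT day 7 library), with a median of -0.12. ACAA2, a mitochondrial thiolase, had 40.1 and 40.5 FPKM in KO day 15, against 46.2 and 46.7 FPKM in WT day 15 and 83.4 and 85.3 FPKM in WT day 7. Of 15 cholesterol synthesis genes, 2 were higher and 5 lower (0 and 2 without the first WT day 7 library, 1 and 2 without the second), with a median of -0.25. Of the 7 genes of E proteins and ID factors, 1 was higher and 2 lower, beside the same shares of all genes. Of 3 skeletal muscle genes tested, PAX3 was higher and ACTN3 lower, ACTN3 with 28.3 and 18.7 FPKM in KO day 15 and 33.5 and 35.7 FPKM in WT day 7. The call of ACTN3 is lost on scaling to the nuclear sum, without either WT day 7 library and without the second KO day 15 library. RUNX1 was the 1 blood list gene tested, at 2.85 and 1.87 FPKM in KO day 15, against 2.49 and 1.57 FPKM in WT day 15 and 0.306 and 0.287 FPKM in WT day 7.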
